A study of Mus musculus with 62 samples.

Results

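Soleus muscle of mock-injected mice was compared between 8 and 6 weeks after injection. The members were the 5 libraries of mock-injected animals (Con) labelled 8 weeks and the 5 labelled 6 weeks, 10 of the 62 libraries of the study. They were chosen by the group and week in the labels, with no measured value in the rule. The study followed cachexia, the wasting that can accompany a tumour, in mice injected with a cachectic melanoma line (CAC), a non-cachectic melanoma line (NCAC) or no tumour cells (Con), and sampled soleus, a slow postural muscle of the hind limb, at 2, 4, 6 and 8 weeks.

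All animals were female and 2 months old at injection. The labels give the strain as C57BL6/J in the sample entries and as NCI Ath/nude in the study design, so the strain, and with it whether the mice had T cells, is not settled here. The labels give the mock animals no tumour cells, no transgene and no drug. The protocol calls the libraries biological replicates. Values were TPM, the standard unit of relative transcript abundance. It is a length-scaled share of each library's RNA in which every library sums to the same total, so a rise in some transcripts lowers the share left for the others. TPM keeps no read depth, and the sequencing depth of these libraries is unknown. Week was the only label that set the 2 groups apart. Age, the date of dissection and any difference in how the tissue or the libraries of the 2 weeks were handled therefore cannot be told apart.

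Bulk muscle RNA comes mostly from muscle fibres, whose nuclei make very large amounts of messages for contractile proteins and mitochondrial enzymes. The remainder comes from cells between the fibres: macrophages that clear debris, mast cells that store histamine and proteases, fibro-adipogenic progenitors that make matrix and can turn into fat cells, vessel cells, nerve-sheath cells and the satellite cells that renew the muscle. In a bulk sample, fewer cells of a type and less RNA per cell cannot be told apart. Soleus of the mouse holds slow fibres with myosin heavy chain Myh7 and fast oxidative fibres with Myh2, and all 10 libraries had high levels of its defining markers. Across the 10 libraries the lowest level of skeletal actin Acta1 was 18661 TPM, of Myh7 1649 TPM, of Myh2 394 TPM, of slow troponin T Tnnt1 3519.9 TPM and of slow troponin I Tnni1 1134 TPM.

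The libraries of week 8 differed from those of week 6 in their make-up. Transcripts of the 13 protein-coding genes of the mitochondrial genome took 39.8% ± 1.02 of all TPM at 6 weeks and 28.7% ± 5.97 at 8 weeks (mean ± SD, n = 5 libraries each, as in all such values below). The difference of -11.1 percentage points had p = 0.00794 in a two-sided exact permutation test, the smallest p that 5 against 5 libraries allow, and the groups did not overlap (38.1 to 40.9% against 20.9 to 35.8%). The number of genes at 1 TPM or more rose from 11808 ± 70.3 to 12880 ± 201, also without overlap and with p = 0.00794 in the same exact test. Libraries of week 8 varied more among themselves: the lowest correlation of log2 values between 2 libraries was 0.987 at 6 weeks and 0.955 at 8 weeks. Replicate 2 of week 8 had the lowest mitochondrial share (20.9%) and the most genes at 1 TPM or more (13186).

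Most tested genes were higher at 8 weeks. Of 12502 genes tested with limma on log2(TPM + 1), 6811 were higher (54.5%) and 1275 lower (10.2%) at a Benjamini-Hochberg adjusted p under 0.05, and the median log2 difference was 0.29. The share of TPM outside the mitochondrial transcripts rose from 60.2% to 71.3%, a log2 ratio of 0.245, and its part in the median difference was not tested. When the libraries were rescaled by the median of ratios, the median difference moved down by 0.34, and 3808 genes were higher (30.5%) and 4362 lower (34.9%). When a trend of expression on exon length was taken out of each library, 3823 of 12102 genes were higher (31.6%) and 3847 lower (31.8%). Counts below are on the deposited scale and are read against 54.5% higher and 10.2% lower, and counts on the rescaled values are given beside them. The share of all tested genes whose weeks did not overlap was not counted. Where a gene is said not to overlap, this describes that gene and does not set it apart from the others. Among the tested genes, 724 had a mean under 1 TPM at 6 weeks and passed the filter mainly through week 8. Of these, 669 were higher and none was lower (with limma), and their part of each list is given with its count.

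The step from 4 to 6 weeks in mock mice gave no gene past the threshold. Between 6 and 4 weeks, 0 of 11913 genes differed (0%) by limma, 954 had an unadjusted p under 0.05, and the median log2 difference was -0.055. With 1 library left out, 1 gene passed without week 4 replicate 4 or week 6 replicate 1 and 0 without any other. This comparison shares the 6 week libraries with the main one. The 9 genes plotted by week were picked from those called between 8 and 6 weeks, so their separation is no independent support. For them every point of week 8 lies outside the range of weeks 2, 4 and 6. How many of all genes separate in this way was not counted.

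**Figure D1:**
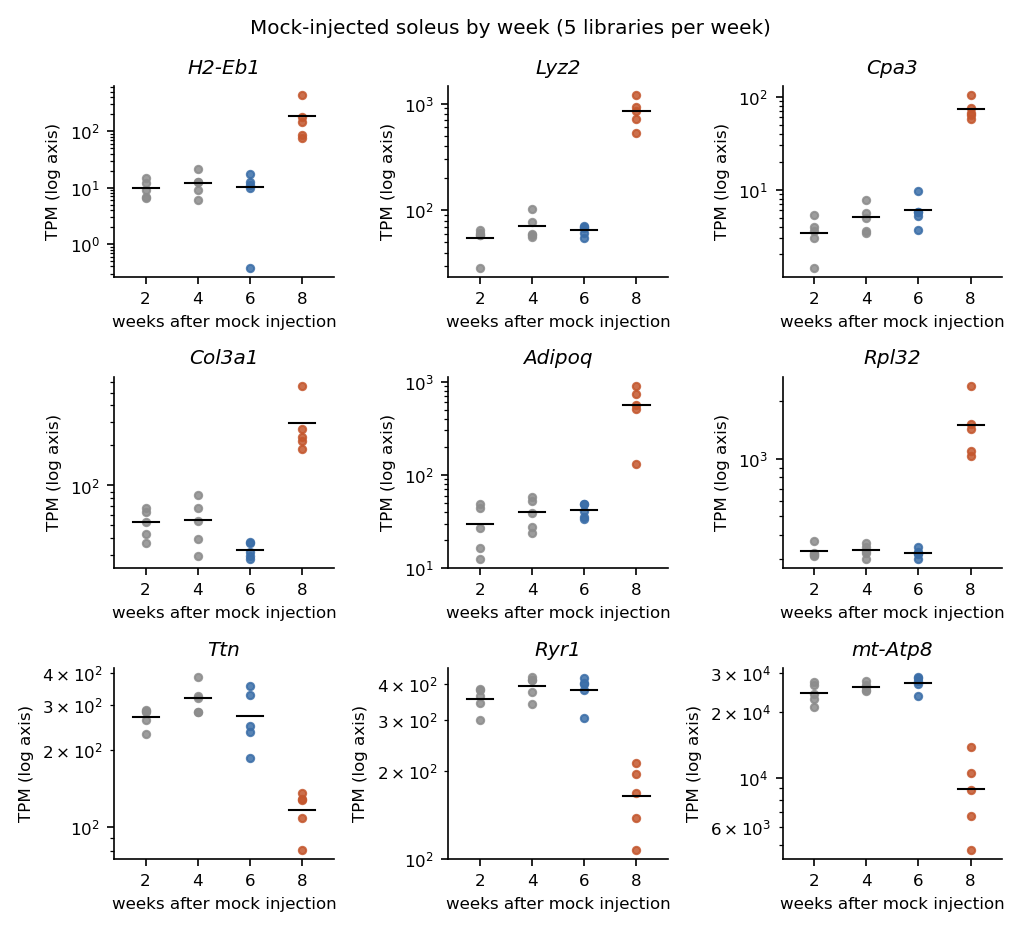
TPM on a log axis of 9 genes in every mock library at 2, 4, 6 and 8 weeks, points being libraries (n = 5 per week) and bars their means. In all 9 panels the 8 week points lie outside the range of the earlier weeks, above for H2-Eb1, Lyz2, Cpa3, Col3a1, Adipoq and Rpl32 and below for Ttn, Ryr1 and mt-Atp8. The genes were picked from those called between 8 and 6 weeks.

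The 10 largest rises among genes of at least 5 TPM were mostly genes of myeloid and mast cells. Predicted genes, RIKEN clones and pseudogenes were left out of the ranking of rises and falls. H2-Eb1, a beta chain of MHC class II, led with a log2 difference of 4.17 ± 0.68 (SE, adjusted p = 0.000288). Week 6 replicate 4 had 0.370 TPM of H2-Eb1 against 9.82 to 17.3 in the others, which raised the difference. The ranking was not repeated without that library. H2-Eb1 was followed by Retnla at 4.13, a secreted protein of alternatively activated macrophages. Mup10 came next at 3.95, a major urinary protein whose near-identical paralogues make its counting uncertain. The mast cell proteases Mcpt4 (3.86) and Cma1 (3.76), the chemokine Ccl8 (3.804), the lysozymes Lyz1 (3.79) and Lyz2 (3.64), Wfdc17 (3.78) and the adaptor Tyrobp (3.66) made up the rest. These 10 genes were picked by the size of their change, and in each all 5 libraries of week 8 lay above all 5 of week 6. Lyz1 and Lyz2 are neighbours on chromosome 10 with similar sequences, so reads may have been shared between them.

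The largest falls were led by a myosin light chain and an olfactory receptor. Myl10, a myosin light chain, had 11.6, 26.4, 25.9, 23.6 and 23.3 TPM in replicates 1 to 5 of week 6 and 1.04, 1.98, 0.813, 1.72 and 0.773 TPM at 8 weeks, a log2 difference of -3.34 ± 0.23 (adjusted p = 1.25e-06). The lowest library of week 6, replicate 1, was still several times above the highest of week 8. Olfr78, an olfactory receptor gene also known outside the nose, went from 6.34 ± 1.12 to 0.446 ± 0.203 TPM (log2 -2.34, adjusted p = 9.38e-07), below the 1 TPM level in every week 8 library. Others among the 10 largest were mt-Atp8 (-1.69), smooth muscle myosin Myh11 (-1.29), the calcium release channel Ryr1 (-1.24), the sarcomere and cytoskeleton genes Cmya5 (-1.23) and Ttn (-1.199), and carbonic anhydrase Car2 (-1.21). In these genes the groups did not overlap.

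MHC class II molecules present peptides taken up by macrophages, dendritic cells and B cells to CD4 T cells, and their genes lie side by side on chromosome 17 (mm10), for example H2-Ab1 at chr17:34257689-34269419, H2-Aa at chr17:34282744-34287823 and H2-Eb1 at chr17:34305867-34316674. Promoters of this family carry a CCAAT-type box close to the start. The promoters of 3 of the genes are shown because they rose together. Capitals mark the letters GATTGG or, on the other strand, CCAATC, which were looked for after the promoters had been seen. The sequences are upstream windows of 90 bases, on the strand of the gene, from RefSeq (GRCm38.p6).
H2-Aa, chr17:34287824-34287913, minus strand: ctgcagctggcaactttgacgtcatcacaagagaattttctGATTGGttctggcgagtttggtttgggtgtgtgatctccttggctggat
H2-Eb1, chr17:34305777-34305866, plus strand: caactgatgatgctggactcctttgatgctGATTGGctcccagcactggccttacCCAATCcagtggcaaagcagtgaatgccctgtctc
H2-DMb1, chr17:34153090-34153179, plus strand: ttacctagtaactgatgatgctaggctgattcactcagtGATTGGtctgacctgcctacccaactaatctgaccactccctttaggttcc
All 4 tested class II genes with a promoter in the table held GATTGG on either strand in the 250 bases before the start, against 16.6% of the 27025 genes in it. The longer CTGATTGG, which contains it, was in 2 of the 4 against 4.43%.

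All 6 tested members of the class II list of 8 were higher (6 of 6 rescaled), with a median log2 difference of 3.47. H2-Eb1 had 9.82, 11.2, 12.6, 0.3701 and 17.3 TPM in replicates 1 to 5 at 6 weeks and 447, 148, 76.3, 87.6 and 183 TPM at 8 weeks. H2-Aa had 9.37, 8.97, 11.8, 7.301 and 13.1 TPM at 6 weeks and 379.9, 101, 58.1, 73.1 and 125 TPM at 8 weeks. Week 8 replicate 1 was the highest library for both genes, replicate 3 the lowest of its week, and neither gene overlapped between weeks. Cd74, the invariant chain that escorts class II molecules, rose 11.5-fold on the TPM + 1 scale (log2 3.53 ± 0.39, adjusted p = 2.21e-05), H2-Ab1 by log2 3.53 and H2-DMa by 2.29. H2-DMb1, a peptide-loading chain that was under 1 TPM on average at 6 weeks (0.925 ± 0.376), rose by 2.85. The median of the 6 members relative to the 6 week mean was 5.08 in week 8 replicate 1 and 2.52 to 3.58 in the other week 8 libraries.

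Macrophage genes rose throughout. All 20 list members were higher (20 rescaled), with a median of 2.69 and a range of 1.396 to 3.65, and 4 of the 20 were under 1 TPM on average at 6 weeks. Lyz2, the lysozyme of myeloid cells, had 70.99, 69.2, 68.3, 54.7 and 61.4 TPM at 6 weeks and 925, 1212, 531, 716 and 854 TPM at 8 weeks, a 12.5-fold rise (log2 3.64 ± 0.18, adjusted p = 9.38e-07). Tyrobp, the signalling adaptor of myeloid receptors, had 6.57, 6.72, 7.41, 7.01 and 10.99 TPM at 6 weeks and 124, 147, 81.7, 89.6 and 108 TPM at 8 weeks. For both genes the lowest 8 week library was more than 7 times the highest 6 week library. The complement component C1qa rose from 24.9 ± 4.000 to 258 ± 80.99 TPM (log2 3.28), the receptor of macrophage colony-stimulating factor Csf1r from 6.65 ± 0.8904 to 49.03 ± 12.3 TPM (2.68), the lysosomal marker Cd68 from 6.42 ± 1.04 to 44.1 ± 10.6 TPM (2.58) and the lysosomal membrane protein gene Laptm5 from 2.75 ± 0.258 to 23.02 ± 5.504 TPM (2.65). Cx3cr1, the fractalkine receptor, had the smallest rise at 1.396, from 0.281 ± 0.115 TPM. The summed level of the list was 159.6 to 197 TPM at 6 weeks and 1398 to 2721 TPM at 8 weeks.

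Mast cells store proteases in granules, and their genes rose in every week 8 library. All 11 list members were higher (11 rescaled), 6 of them with a mean under 1 TPM at 6 weeks, and only 6 members were tested, all higher, when any 1 library of week 8 was left out. Mcpt4 had 6.32, 18.2, 12.3, 9.39 and 9.42 TPM at 6 weeks and 133, 266, 198, 121 and 146 TPM at 8 weeks. The chymase Cma1 rose by log2 3.76 ± 0.25, the tryptase Tpsb2 by 3.58 ± 0.21 and carboxypeptidase Cpa3 by 3.44 ± 0.21 (adjusted p = 1.21e-06, 9.42e-07 and 1.14e-06). For each of these 4 genes replicate 2 was the highest library of both weeks and the weeks did not overlap. Replicate 2 at 6 and replicate 2 at 8 weeks share only a number. Hdc, the enzyme that makes histamine, was low at both weeks (0.5196 ± 0.0907 and 1.69 ± 0.448 TPM, log2 0.81), as was the receptor gene Mrgprb1 (0.442 ± 0.218 and 3.64 ± 0.417 TPM).

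Other blood cells were near the detection floor or moved less evenly. Of 11 neutrophil genes only S100a8 (log2 2.403) and S100a9 (2.04) were tested, and both rose (both also rescaled). When genes of all levels were fitted, 5 of the 11 were higher, against 8417 of all 21701 genes in that fit. The 5 of 11 are therefore not read as a result about neutrophils. These 2 genes are also made by monocytes, and the other 9 members did not reach 1 TPM in 5 libraries. Of 15 lymphocyte genes 3 were tested and 2 were higher (2 rescaled, 1 with the length trend removed). The immunoglobulin heavy chain gene Ighm rose from 4.15 ± 0.416 to 41.8 ± 16.6 TPM (log2 2.97, adjusted p = 1.83e-06), while Gzma went from 0.491 ± 0.337 to 1.63 ± 0.496 TPM and left the tested set when any 1 library of week 8 was omitted, which left 1 member higher. Of 10 erythroid genes 5 were tested and 4 were higher (3 rescaled). Hbb-bs, the main beta globin, had 365, 199, 399.9, 941 and 448 TPM at 6 weeks and 1817, 2315, 2855, 1142 and 1219 TPM at 8 weeks (log2 2.08 ± 0.38, adjusted p = 0.000571). Globin genes have near-identical copies, so the split of reads among them is uncertain. The haem synthesis gene Alas2 did not pass (log2 0.48, adjusted p = 0.275). Summed haemoglobin was 508 to 2153 TPM at 6 weeks and 2240.0 to 5515 TPM at 8 weeks, so the libraries of week 8 held more haemoglobin message, and its part in the immune gene values was not tested.

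Chemokines and complement rose with the myeloid genes. Of 12 tested chemokine genes 9 were higher and none lower (9 and 0 rescaled), with 4 of the 12, 3 of them higher, under 1 TPM at 6 weeks. Ccl11, which attracts eosinophils, had 33.4, 28.5, 31.7, 29.7 and 36.2 TPM at 6 weeks and 242, 356, 238, 167 and 268 TPM at 8 weeks. Ccl9 rose by log2 3.496, Ccl6 by 3.55 and Cxcl14 by 2.19. Ccl8 was 233 TPM in week 8 replicate 1 and 13.04 to 28.5 TPM in the other 4, against 0.987 to 2.71 TPM at 6 weeks. Cxcl12, a chemokine of stromal cells, did not pass (log2 0.12 ± 0.088, adjusted p = 0.258). Of the 13 complement genes 12 were higher and 1 lower (12 and 1 rescaled), with 2 of the 12 under 1 TPM at 6 weeks. C3, the central component of the cascade, rose 11.7-fold (log2 3.55 ± 0.26, adjusted p = 1.94e-06), C4b by log2 3.15, the alternative-pathway genes Cfb by 2.88 and Cfp by 2.51. The exception was Masp1, a protease of the lectin pathway, at -0.25 (adjusted p = 0.0425), a call that was lost when week 6 replicate 3 or 5 or week 8 replicate 1, 2, 3 or 4 was left out (adjusted p 0.0747 to 0.0948 without them).

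Interferon-responsive genes and MHC class I genes, which nearly all nucleated cells express, had a lower median. Of 30 tested, 28 were higher and none lower (26 and 0 rescaled), with a median of 1.25. The promoters of 2 of them are shown because they hold the core of the interferon-stimulated response element, the letters GAAA, any 2 bases and GAAA again. Capitals mark it or its reverse complement, TTTC, any 2 bases and TTTC, and the windows are 90 bases on the strand of the gene, within the 250 bases before its start (RefSeq, GRCm38.p6).
B2m, chr2:122147513-122147602, plus strand: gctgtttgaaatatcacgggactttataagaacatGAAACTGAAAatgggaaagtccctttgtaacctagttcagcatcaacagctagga
Ifit3, chr19:34583372-34583461, plus strand: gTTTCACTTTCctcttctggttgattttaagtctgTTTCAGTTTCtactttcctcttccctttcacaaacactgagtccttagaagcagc
Of the 24 tested list genes with a promoter in the table, 9 held that motif on either strand in the 250 bases before the start (37.5%), against 3.46% of all genes in the table. B2m, the shared light chain of class I molecules, had 310.0, 279.9, 224, 233 and 269.7 TPM at 6 weeks and 1465, 953, 851, 693 and 901 TPM at 8 weeks (log2 1.85 ± 0.18, adjusted p = 8.33e-06). H2-K1 rose by log2 2.12, H2-D1 by 2.52, and the antigen-processing genes Tapbp by 1.29 and Psmb8 by 2.01. The antiviral Ifitm3 rose by 1.896, and none of these genes overlapped between weeks. Ifit3 had 7.24 ± 2.08 TPM at 6 weeks and 19.4 ± 7.01 TPM at 8 weeks (log2 1.27 ± 0.24, adjusted p = 0.000708). The list median was highest in week 8 replicate 1 (1.97) and lowest in replicate 4 (0.62).

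**Figure D2:**
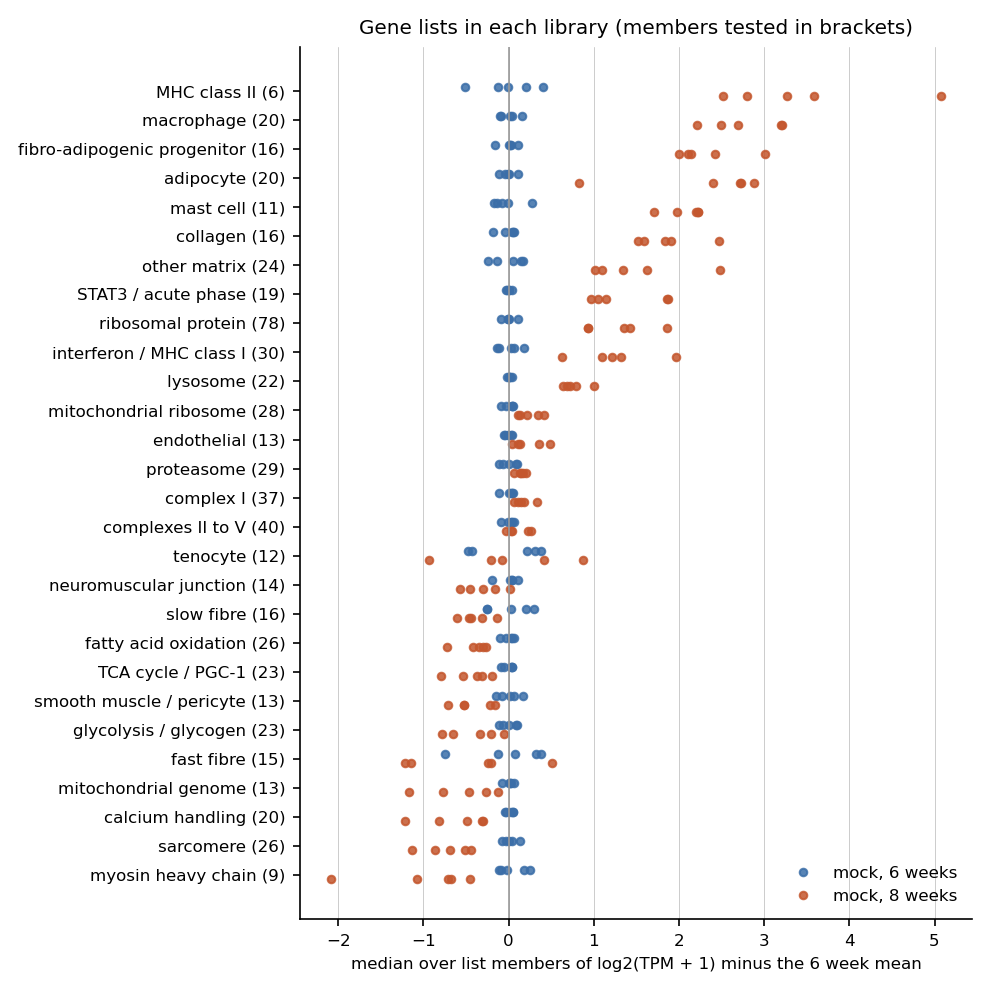
Median over the tested members of each of 28 gene lists of log2(TPM + 1) minus the 6 week mean, with 1 point per library (blue, 6 weeks; orange, 8 weeks; n = 5 each). At the top, MHC class II, macrophage and fibro-adipogenic progenitor lists have all week 8 points above all week 6 points, and at the bottom the sarcomere points of week 8 lie below all those of week 6.

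Most genes of fat cells were higher at 8 weeks, and least so in replicate 1. Of 20 tested adipocyte genes 15 were higher and 1 lower (13 and 2 rescaled), with a median of 2.26. Adipoq, the hormone adiponectin of fat cells, had 49.1, 35.2, 33.99, 41.3 and 49.1 TPM at 6 weeks and 131, 909, 508, 563 and 733 TPM at 8 weeks (log2 3.51 ± 0.42, adjusted p = 3.70e-05). Plin1, which coats lipid droplets, had 12.5, 6.63, 7.36, 9.75 and 13.2 TPM at 6 weeks and 29.3, 172, 120.3, 93.7 and 116 TPM at 8 weeks. Week 8 replicate 1 was the lowest of its week for both genes and still above every week 6 library. Fabp4, a fatty acid carrier, rose from 835 ± 67.03 to 4487 ± 2009 TPM, the secreted factor Cfd by log2 3.63, the differentiation factor Cebpa by 2.98 and leptin, Lep, by 3.07. Car3, the most abundant list member and a carbonic anhydrase that muscle also makes, did not pass (5021 ± 1485 and 5072 ± 980.0 TPM, adjusted p = 0.888). Lpl, the lipoprotein lipase that muscle fibres also make, fell by 1.26-fold on the TPM + 1 scale (log2 -0.34 ± 0.103, adjusted p = 0.0133). The list median was 0.82 in replicate 1 and 2.400 to 2.88 in the other 4 libraries of week 8. The summed level of the list was 6929.9 to 10759 TPM at 6 weeks and 15937 to 25385 TPM in those 4 libraries, while week 8 replicate 1, at 8685 TPM, lay within the range of week 6.

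Genes of fibro-adipogenic progenitors were higher without exception. All 16 progenitor genes were higher (16 rescaled), with a median of 2.28. Dpt, a small matrix protein, had 49.7, 53.1, 61.5, 51.2 and 57.97 TPM at 6 weeks and 431, 1214, 633, 477 and 654 TPM at 8 weeks (log2 3.52 ± 0.23, adjusted p = 1.15e-06). The receptor Pdgfra that defines these cells rose from 5.68 ± 0.454 to 31.9 ± 11.3 TPM, the adventitial marker Pi16 from 24.6 ± 3.36 to 233 ± 93.9 TPM and the abundant Gsn, gelsolin, from 619 ± 41.6 to 4272 ± 1497 TPM. Replicate 2 was the highest library of week 8 for each of these 4 genes. The smallest rise was that of Tnfaip6 (log2 1.54), and Smoc2 rose by 2.495.

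Of 16 collagen genes 14 were higher and none lower (13 and 0 rescaled), with a median of 1.96. Col3a1, fibrillar collagen type III, had 27.8, 37.8, 36.7, 31.5 and 29.7 TPM at 6 weeks and 233, 564, 214, 188 and 266 TPM at 8 weeks. Col14a1 rose by log2 2.93, Col5a1 by 2.57 and Col15a1 by 1.84. Col1a1, the main chain of type I collagen, went from 76.7 ± 32.2 to 135 ± 66.9 TPM and did not pass (log2 0.805 ± 0.36, adjusted p = 0.0685). It passed without week 6 replicate 4 (adjusted p = 0.0462), week 8 replicate 1 (0.0484) or week 8 replicate 4 (0.04796). Col12a1 did not pass either (log2 0.21, adjusted p = 0.446). Of 24 other matrix genes 18 were higher and none lower (14 and 1 rescaled), 1 of them under 1 TPM at 6 weeks, with fibrillin Fbn1 (log2 3.25), the cross-linking enzyme Loxl1 (2.74), fibronectin Fn1 (2.26), the protease inhibitor Timp2 (2.19) and the proteoglycan Bgn (2.04) among them.

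Tendon genes stood near the level of week 6. Of 12 tenocyte genes 2 were higher and none lower (1 and 2 rescaled), and the median was 0.044, below the 0.29 of all genes. Tnmd, which marks mature tendon cells, had 38.5, 57.6, 63.1, 64.1 and 34.9 TPM at 6 weeks and 22.7, 99.3, 44.98, 59.9 and 51.7 TPM at 8 weeks (log2 0.005 ± 0.33, adjusted p = 0.9898). The tendon transcription factor Scx rose by log2 0.79 (adjusted p = 0.00861) and Cilp by 1.78, while the tendon proteoglycan Fmod was at -0.78 ± 0.38 (adjusted p = 0.0941). Without week 8 replicate 2, 1 member was lower. Tendon genes ranged widely between libraries of the same week, as the values of Tnmd show.

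On the deposited scale the calls among endothelial genes were higher and most among smooth muscle and pericyte genes lower. Of 13 endothelial genes 6 were higher and none lower on the deposited scale, but 1 was higher and 5 lower after rescaling, so their direction depends on the scale. Leaving out week 6 replicate 3 or 4 or week 8 replicate 3 or 5 brought the 6 down to 3, as did fitting genes of all levels, and 1 gene was lower without week 6 replicate 1 or week 8 replicate 2, 3 or 5. The adhesion molecule Pecam1, present on all endothelium, had 48.4 ± 6.22 and 56.4 ± 9.39 TPM (log2 0.21 ± 0.12, adjusted p = 0.146). The angiopoietin receptor Tek rose by 0.802 and the tight-junction gene Cldn5 by 0.698. Of 13 smooth muscle and pericyte genes 7 were lower and 1 higher (11 and 0 rescaled). Myh11, the smooth muscle myosin, had 15.7, 19.7, 17.4, 15.8 and 19.8 TPM at 6 weeks and 3.91, 8.89, 5.92, 6.16 and 9.68 TPM at 8 weeks (log2 -1.29 ± 0.19, adjusted p = 0.000122). Myosin light chain kinase Mylk fell by 1.55-fold, the receptor Notch3 of vessel-wall cells by 1.64-fold and the pericyte gene Rgs5 by 1.29-fold. The higher member was the proteoglycan gene Cspg4 (log2 0.39, adjusted p = 0.0147; 0.034 rescaled). Des, desmin, which muscle fibres also make, fell by 1.45-fold.

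Schwann cell genes were divided. Of 10 tested, 1 of them under 1 TPM at 6 weeks, 3 were higher and 2 lower (2 and 5 rescaled). Pmp22 (1.24), S100b (1.39) and Cnp (0.58) rose and the lineage factor Sox10 fell (-0.53, from 1.83 ± 0.4997 to 0.952 ± 0.337 TPM). The count of lower genes was 4 without week 6 replicate 1 or week 8 replicate 5 and 1 without any other library except week 8 replicate 3. It was 4 with the replicate number as a block and 1 when all 62 libraries were fitted.

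The counts for satellite cell and synapse genes moved when single libraries were left out. Of 9 tested satellite and myogenic genes 2 were higher and 2 lower (1 and 4 rescaled), and Pax7, which defines satellite cells, had 2.23 ± 0.431 and 2.04 ± 0.756 TPM (log2 -0.12 ± 0.18, adjusted p = 0.577). The counts changed when 1 library was left out: 1 higher without week 6 replicate 2, 3 or 5 or week 8 replicate 1, 2, 3 or 5, and 1 lower without week 6 replicate 3, 4 or 5 or week 8 replicate 2, and 4 lower without week 8 replicate 1. The muscle regulatory factor Myf6 fell by 1.36-fold (log2 -0.44, adjusted p = 0.0119) and Vcam1, also made by endothelium and immune cells, rose by 0.89. Of 14 tested genes of the neuromuscular junction, several of which rise after denervation, 3 were lower and none higher (8 and 0 rescaled). Dok7, needed to form the synapse, fell by 1.32-fold (adjusted p = 0.00462), and the kinase gene Musk did not pass (log2 0.18, adjusted p = 0.429). The acetylcholine receptor subunit Chrna1 fell by 1.52-fold (adjusted p = 0.0313), a call lost without week 6 replicate 1 (0.0725), 2 (0.0505) or 3 (0.0637). The count of 3 was 1 without week 6 replicate 1 or 3 and 6 without week 8 replicate 3. It was 7 with the replicate number as a block, and with genes of all levels fitted 1 gene was lower and 1 higher.

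The sarcomere is the contractile unit of striated muscle, built of actin and myosin filaments, the elastic giant titin and the proteins that anchor them. Of 26 tested sarcomere genes 23 were lower and none higher (26 and 0 rescaled), with a median of -0.75. Ttn, titin, had 354, 248, 235, 185 and 329 TPM at 6 weeks and 136, 80.7, 127, 128 and 108 TPM at 8 weeks (log2 -1.199 ± 0.19, adjusted p = 0.000232). Myom1, which crosslinks thick filaments at the M-line, had 614, 624, 608, 639 and 595 TPM at 6 weeks and 379, 208, 371, 326 and 247 TPM at 8 weeks. For both genes replicate 2 was the lowest library of week 8 and no library of week 8 reached the level of any of week 6. Cmya5 fell by 2.34-fold and Mybpc1, slow myosin-binding protein, by 1.78-fold. Acta1, the most abundant member, had 34805 ± 3256 and 25284 ± 5836 TPM and did not pass (log2 -0.49 ± 0.21, adjusted p = 0.0614), although it did without week 8 replicate 1 (0.02996) or replicate 3 (0.0491). The small heat shock protein gene Cryab had the smallest change (log2 -0.13, adjusted p = 0.522).

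Myosin heavy chains set the speed of a fibre. Of 9 genes 5 were lower and none higher (5 and 0 rescaled). Myh7, the slow chain, had 5317, 4443, 4735, 5549 and 4143 TPM at 6 weeks and 2937, 1649, 2599, 2552 and 2735 TPM at 8 weeks (log2 -0.97 ± 0.17, adjusted p = 0.000396). Myh6 had 957 ± 129 and 501 ± 98.1 TPM (log2 -0.95), but it is nearly identical to its neighbour Myh7 and reads may have been shared. Myh13, a chain known from eye muscle, had 1.68, 4.69, 3.61, 3.88 and 4.304 TPM at 6 weeks and 0.0469, 0.00727, 0.0452, 0.129 and 0.0475 TPM at 8 weeks, under the 1 TPM level in every library of week 8. The fast chains varied widely between libraries of one week. Myh2 had 932, 2546, 1816, 1387 and 2232 TPM at 6 weeks and 1416, 394, 1371, 1025 and 476 TPM at 8 weeks, and its adjusted p of 0.0399 rose to between 0.0505 and 0.0974 without any 1 of week 6 replicates 2 to 5 or week 8 replicates 2 and 5. Myh1 had 73.4, 29.8, 1531, 93.8 and 19.5 TPM at 8 weeks and 44.4 to 596 TPM at 6 weeks (adjusted p = 0.519), and it passed only without week 8 replicate 3 (log2 -1.82, adjusted p = 0.04501). Myh4 did not pass (log2 -0.66 ± 0.48, adjusted p = 0.2402). The count of 5 was 2 or 3 without any 1 library of week 6 (2 without replicate 2 or 4) and 3 without week 8 replicate 5.

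Among other fibre type genes falls outnumbered rises. Of 16 slow fibre genes 6 were lower and 1 higher (12 and 0 rescaled), and of 15 fast fibre genes 4 were lower and none higher (5 and 0 rescaled). The higher slow gene was Sln, sarcolipin, an inhibitor of the calcium pump (log2 0.698 ± 0.26, adjusted p = 0.0322), and its adjusted p was above 0.05 without week 6 replicate 2 (0.0818) or 5 (0.0767) or week 8 replicate 1 (0.0643), 2 (0.0649), 3 (0.0648) or 4 (0.0509). Myl2, the slow regulatory light chain and the most abundant slow gene at 8 weeks, did not pass (log2 0.18 ± 0.17, adjusted p = 0.372), and neither did Tnnc2, fast troponin C (-0.39 ± 0.34, 0.3197). The slow tropomyosin gene Tpm3 fell by 1.69-fold. Without week 8 replicate 3, in which Myh1 was high, 7 fast fibre genes were lower.

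Calcium handling genes were mostly lower. A muscle contracts when the sarcoplasmic reticulum releases calcium through Ryr1 and relaxes when the pumps Atp2a1 and Atp2a2 return it. Of 20 list members 14 were lower and 3 higher (16 and 2 rescaled), with a median of -0.65. Ryr1 had 402, 418, 403, 306 and 382 TPM at 6 weeks and 214, 107, 196, 168 and 138 TPM at 8 weeks (log2 -1.24 ± 0.17, adjusted p = 0.000101). Atp2a2, the slow pump, fell from 4159 ± 456 to 2123 ± 433 TPM, the fast pump Atp2a1 from 3414 ± 878 to 1892 ± 748 TPM, and triadin, Trdn, from 403 ± 32.8 to 210.4 ± 42.3 TPM. The junction proteins Jph2 (1.79-fold) and Srl (1.89-fold) also fell, as did the calcium store protein Casq1 (1.47-fold) and phospholamban, Pln (2.18-fold). The largest rise was that of Fkbp1a, a binding partner of Ryr1 that all cell types make (log2 0.75 ± 0.11, adjusted p = 0.000156).

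The mitochondrial genome encodes 13 subunits of the respiratory chain. Of its 13 genes 8 were lower and none higher (13 and 0 rescaled), with a median of -0.54. The count of 8 was 5 without any 1 of the libraries of week 6 or without week 8 replicate 3 or 5, 5 with the replicate number as a block and 2 when genes of all levels were fitted. The genes did not fall evenly: mt-Atp8, a small subunit of ATP synthase, had 27561, 26915, 28908, 23620.5 and 28442 TPM at 6 weeks and 10577, 4711, 6777, 13854 and 8885 TPM at 8 weeks (log2 -1.69 ± 0.27, adjusted p = 0.000219). Its reading frame overlaps that of mt-Atp6, so reads may have been shared between the pair. The complex I subunit genes that fell included mt-Nd2 (log2 -0.93), mt-Nd6 (-0.92), mt-Nd4 (-0.77) and mt-Nd1 (-0.62). The most abundant of the 13, mt-Co1 of cytochrome oxidase, had 86221 ± 1614 and 67808 ± 11261 TPM and did not pass (log2 -0.36 ± 0.23, adjusted p = 0.185), nor did mt-Co3 (-0.22, 0.4096). Replicate 2 of week 8 was lowest for each of these genes and replicate 4 highest for most.

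Nuclear genes of the respiratory chain went in both directions on the deposited scale. Of 37 complex I genes 18 were higher and 6 lower, and of 40 genes of complexes II to V 18 were higher and 10 lower. Rescaling turned both lists, to 3 higher and 20 lower and to 11 higher and 21 lower. Cox6a1, a subunit of cytochrome oxidase, had 62.5, 65.6, 75.1, 75.3 and 76.01 TPM at 6 weeks and 146, 326, 260.2, 185 and 259 TPM at 8 weeks (log2 1.67, 1.27 rescaled). Atp5e, the epsilon subunit of ATP synthase, rose by 1.55, Cox8a by 1.31, Ndufb4 of complex I by 1.06, Ndufa7 by 0.72 and Ndufa4 by 0.71, and these genes were also higher after rescaling. Against them, Ndufs1, the largest subunit of complex I, fell from 231 ± 11.6 to 155 ± 31.8 TPM (log2 -0.59 ± 0.13, adjusted p = 0.00255). The ATP synthase alpha subunit Atp5a1 fell by 1.52-fold and the succinate dehydrogenase subunit Sdha by 1.49-fold. Cox5a did not pass (log2 -0.046, adjusted p = 0.673).

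Short respiratory genes lay above long ones. Across the 77 genes the difference correlated with exon length at a Spearman rho of -0.427 (Pearson r -0.415 on log2 length). Within complex I (37 genes) rho was -0.206 and within complexes II to V (40 genes) it was -0.547. The points are genes of the same 10 libraries and no independent replicates. Of the 38 shorter genes (360.0 to 1587 bp of exons) 24 were higher and 2 lower, and of the 39 longer ones (1675 to 8086 bp) 12 were higher and 14 lower. All tested genes showed the same slope: their median log2 difference was 0.49 in the fifth with the shortest exons (183 to 2373 bp), 0.33, 0.27 and 0.22 in the next, and 0.20 in the fifth with the longest (7492 bp and over). The part that transcript length or RNA quality had in the differences was not tested.

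**Figure D3:**
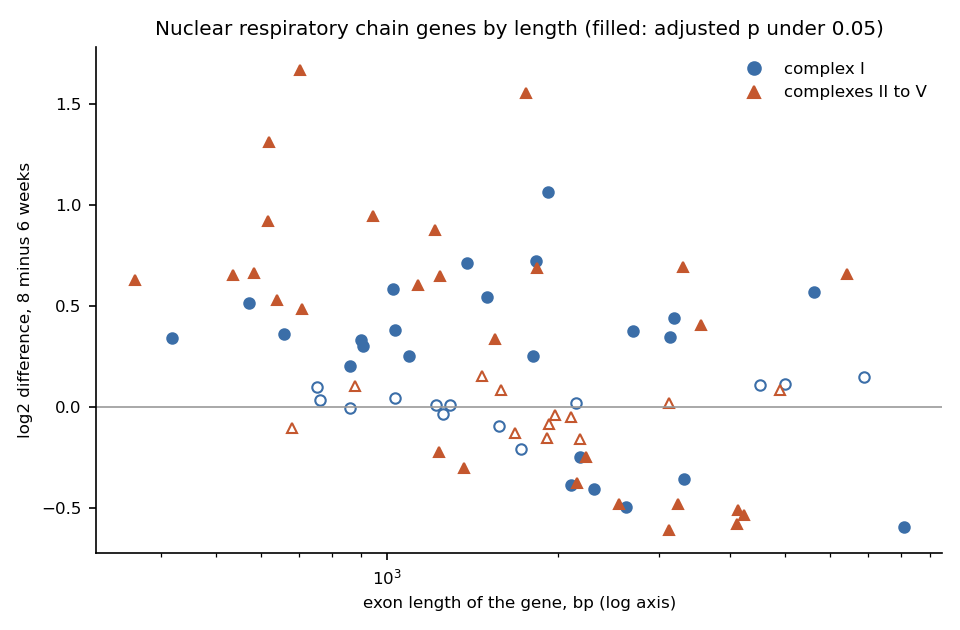
Log2 difference between 8 and 6 weeks of 77 nuclear respiratory chain genes against their exon length in base pairs (log axis), with circles for complex I and triangles for complexes II to V, filled where the adjusted p was under 0.05. Most points under 1587 bp lie above 0, and most filled points below 0 are longer genes.

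Genes of fuel pathways were mostly lower. Of 23 genes of the citric acid cycle and of the PGC-1 regulators of mitochondrial mass, 19 were lower and none higher (21 and 0 rescaled), with a median of -0.41. Cs, citrate synthase, had 615, 652, 674, 596 and 636 TPM at 6 weeks and 512, 316, 494, 451 and 368 TPM at 8 weeks (log2 -0.59 ± 0.13, adjusted p = 0.00207). Isocitrate dehydrogenase Idh2 fell by 1.67-fold, Ogdh by 1.73-fold and the pyruvate dehydrogenase subunit Pdha1 by 1.57-fold, all without overlap between weeks. Ppargc1a, which encodes PGC-1alpha, had 6.52, 3.68, 10.7, 19.6 and 5.28 TPM at 8 weeks and 8.22 to 10.7 TPM at 6 weeks and did not pass (adjusted p = 0.533). Of 26 genes of fatty acid uptake and oxidation 16 were lower and 1 higher (23 and 1 rescaled). Hadha, of the trifunctional protein, fell by 1.73-fold, Cpt1b, which admits fatty acids to mitochondria, by 1.58-fold and Acadm by 1.505-fold. The one that rose was Angptl4, a secreted inhibitor of lipoprotein lipase also made by fat cells (log2 1.89 ± 0.52, adjusted p = 0.00746).

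Of 23 glycolysis and glycogen genes 12 were lower and 1 higher (20 and 1 rescaled), and 19 were lower without week 8 replicate 3. Ldhb, lactate dehydrogenase, fell by 1.57-fold, the muscle phosphofructokinase Pfkm by 1.604-fold and phosphorylase kinase Phka1 by 1.697-fold. The muscle phosphorylase Pygm fell (log2 -0.72 ± 0.24, adjusted p = 0.0197), a call that was lost without week 8 replicate 5 (0.0509). Pgm1, phosphoglucomutase, was the member that rose (log2 0.59, adjusted p = 0.0004797), at 8.34 ± 1.09 TPM a low level for the pathway.

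Ribosomal protein genes, expressed by every cell that makes protein, were almost all higher. Of 78 tested 77 were higher and none lower (71 and 0 rescaled), with a median of 1.297. Rpl32 had 318, 298, 326, 345 and 323 TPM at 6 weeks and 1034, 2418, 1441, 1102 and 1527 TPM at 8 weeks (log2 2.15 ± 0.196, adjusted p = 6.00e-06). Rplp1, the most abundant, rose from 1563 ± 160.0 to 3934 ± 1195 TPM, Rpl34 by log2 2.21, Rps16 by 1.98 and Rplp0, of the ribosome stalk, by 0.701. Among libraries of week 8 replicate 2 was the highest (list median 1.86) and replicates 1 and 4 were the lowest (0.93 and 0.93). The gene that did not pass was Rps26, which had 888, 1581, 0.7297, 876 and 1199 TPM at 8 weeks and 488 to 537 TPM at 6 weeks (log2 -0.78 ± 1.58, adjusted p = 0.679). Without the 1 low library, week 8 replicate 3, it was higher (log2 1.09, adjusted p = 0.000337).

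Other steps of protein making and breakdown were mixed. Of 26 translation factors 10 were higher and 5 lower (5 and 16 rescaled). Eef1a1, the elongation factor of most tissues, had 524, 541, 479, 538 and 473 TPM at 6 weeks and 1946, 3879, 2360.4, 1886 and 2684 TPM at 8 weeks (log2 2.27 ± 0.18, adjusted p = 2.58e-06), and Pabpc1 and Eef1b2 rose by 1.31 and 1.12. The initiation scaffold Eif4g1 fell by 1.46-fold (adjusted p = 3.99e-05). Of 28 mitochondrial ribosome genes 17 were higher and 1 lower (5 and 11 rescaled), led by Mrps24 (1.02). The lower one, Mrps5, was at -0.19 (adjusted p = 0.0331), a call lost without any 1 library except week 6 replicate 1 and week 8 replicates 1 and 3 (adjusted p 0.0508 to 0.0770). Without week 8 replicate 3, 2 of the list were lower.

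The proteasome, which degrades tagged proteins, had 14 of 29 genes higher and 3 lower, but 1 higher and 18 lower after rescaling. The largest change upward was Psma7 (log2 0.58, 0.18 rescaled) and downward Psmd2 (-0.32, -0.72 rescaled). The count of 3 lower genes was 1 without week 6 replicate 1, 3 or 4 or week 8 replicate 2, 3 or 5. Lysosomal genes, by contrast, were higher on both scales, 21 of 22 with none lower (16 and 3 rescaled). Ctss, a protease of antigen-presenting cells, had 8.75, 8.97, 9.25, 7.89 and 11.2 TPM at 6 weeks and 183, 91.96, 48.2, 99.1 and 85.5 TPM at 8 weeks. Npc2 rose by log2 1.87, Ctsz by 1.605, Ctsb by 1.16 and Ctsk, known from osteoclasts and fibroblasts, by 1.88. Lamp1 was the one that did not pass (log2 0.11, adjusted p = 0.164; -0.29, 0.00792 rescaled).

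Genes of muscle atrophy were called in both directions on the deposited scale. With rescaling or with the length trend removed, 9 were lower and 0 higher, so their direction depends on the scale. The list of ubiquitin ligases and autophagy genes that rise in wasting muscle had 4 of 19 higher and 3 lower (0 and 9 rescaled; 5 lower without week 8 replicate 1, 0 when all 62 libraries were fitted). Fbxo32, atrogin-1, had 177, 128, 119, 137 and 153 TPM at 6 weeks and 119, 55.97, 98.3, 94.1 and 82.97 TPM at 8 weeks, a 1.61-fold fall (log2 -0.69 ± 0.18, adjusted p = 0.00592). Trim63, MuRF1, did not pass (log2 -0.47 ± 0.22, adjusted p = 0.0764), but did without week 8 replicate 1 (0.0458) or 3 (0.0464). Of 18 glucocorticoid targets 4 were higher and 3 lower (4 and 4 rescaled; 0 lower when all 62 libraries were fitted). Fkbp5, a sensitive target of the hormone, did not pass (log2 0.11 ± 0.25, adjusted p = 0.715), while metallothionein Mt2 rose from 15.5 ± 2.73 to 74.6 ± 37.1 TPM (log2 2.09) with its close paralogue Mt1 (1.39) and Cebpd rose by 1.41.

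Acute phase genes, many of them targets of STAT3 that liver and fat also express, were higher in 17 of 19 tested cases with none lower (15 and 1 rescaled), with a median of 1.41. Hp, haptoglobin, had 11.99, 5.15, 7.96, 10.9 and 13.3 TPM at 6 weeks and 41.05, 173, 83.4, 130.1 and 117 TPM at 8 weeks (log2 3.25 ± 0.35, adjusted p = 1.85e-05). Serpina3n rose from 8.397 ± 3.46 to 36.7 ± 11.4 TPM, the interleukin 1 receptor Il1r1 by log2 1.14 and Bcl3 by 1.19. Stat3 itself was at 0.28 ± 0.081 (adjusted p = 0.01003), near the median of all genes, and at -0.103 after rescaling (0.2597).

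Immediate early genes respond within minutes to handling and dissection. Of 21 tested 8 were higher and none lower (7 and 3 rescaled), and 1 was lower without week 6 replicate 4. The share higher was smaller than the 54.5% of all tested genes, and the list median of 0.22 lay below their 0.29. Junb rose from 10.2 ± 3.46 to 32.3 ± 7.38 TPM, Jund by log2 1.03 and Klf6 by 1.11. Fos did not pass, with 7.91, 2.86, 7.35, 3.83 and 36.4 TPM at 6 weeks and 10.05, 14.5, 4.52, 4.79 and 18.96 TPM at 8 weeks (adjusted p = 0.756), and the weeks overlapped. Heat shock genes went both ways, 8 higher and 7 lower of 27 (5 and 18 rescaled). The endoplasmic chaperones Pdia3 (1.201) and Hsp90b1 (0.73) rose and the mitochondrial chaperone Hspd1 fell (-0.45). Inducible Hspa1a fell by 1.76-fold, and Hspa1b did not pass (-0.600 ± 0.27, adjusted p = 0.0704) except without week 6 replicate 3 (0.0374) or 5 (0.0191). These 2 genes are near-identical copies.

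Clock genes depend on the hour of dissection, which the labels do not give. Of 17 tested 7 were higher and 3 lower (1 and 6 rescaled; 6 lower without week 8 replicate 5). Dbp, an output gene of the clock, had 113, 124, 107, 78.4 and 132 TPM at 6 weeks and 171, 125, 259.7, 196 and 248 TPM at 8 weeks (log2 0.82 ± 0.201, adjusted p = 0.00404). The repressor Nr1d1 rose from 49.3 ± 29.2 to 121 ± 37.1 TPM and Cry1 fell by 1.43-fold. Arntl, the core activator, ran from 0.961 to 17.1 TPM within week 8, and neither it (adjusted p = 0.225) nor Per2 (0.196) passed. Without week 8 replicate 5 both did (log2 1.26, adjusted p = 0.0259 for Arntl and -0.77, 0.0305 for Per2).

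Of 16 cell cycle genes 7 were tested and 5 were higher (3 rescaled, 2 with the length trend removed), 2 of them with a mean under 1 TPM at 6 weeks. When genes of all levels were fitted, 14 of the 16 were higher, against 8417 of all 21701 genes in that fit. Pcna, of the replication fork, rose from 22.2 ± 1.598 to 33.9 ± 5.19 TPM (log2 0.58). Mki67, a marker of cycling cells that did not pass the filter on low values, had 0.135, 0.131, 0.0751, 0.0677 and 0.127 TPM at 6 weeks and 1.53, 1.48, 0.458, 1.06 and 1.302 TPM at 8 weeks, without overlap. Of 12 p53 and arrest genes 4 were higher and 2 lower (4 and 4 rescaled): the apoptosis genes Bax (1.02) and Bbc3 (1.26) were among the higher and Ccng1 (-0.45) among the lower. Cdkn1a was at 0.52 ± 0.24 (adjusted p = 0.0784) and Eda2r, which rises in ageing muscle, at 0.26 ± 0.24 (0.3499). Both passed without week 6 replicate 1 (adjusted p = 0.0125 and 0.0174), and Cdkn1a also without week 8 replicate 5 (0.0384).

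Genes of insulin and IGF signalling were called higher about as often as all tested genes (54.5%), and went both ways after rescaling. Of 21 tested 11 were higher and none lower (10 and 7 rescaled; 1 lower without week 6 replicate 1 or week 8 replicate 1 or 3). Igf1, which muscle, macrophages and fat make, had 4.44, 5.48, 5.01, 4.33 and 4.42 TPM at 6 weeks and 16.6, 35.6, 19.8, 23.9 and 28.1 TPM at 8 weeks (log2 2.13 ± 0.17, adjusted p = 2.87e-06). Its binding proteins Igfbp4 and Igfbp6 rose by 2.53 and 2.897, and Fstl1 by 2.79. Igf2 did not pass (log2 0.072, adjusted p = 0.595; -0.29, 0.02698 rescaled). Nnat, an imprinted gene of fat and nerve, had 31.4, 2.48, 10.01, 18.1 and 31.9 TPM at 6 weeks and 45.1, 292, 196, 199 and 243 TPM at 8 weeks. Of 10 tested long noncoding RNAs and small RNA hosts, 1 of them under 1 TPM at 6 weeks, 6 were higher and none lower (5 and 2 rescaled), with the snoRNA hosts Snhg1 (1.17) and Gas5 (0.83) among them, while Malat1 did not pass (log2 0.12 ± 0.16, adjusted p = 0.528). Histone genes, whose messages mostly lack the poly(A) tail that the library kit selects, had 2 of 7 higher and 2 lower (0 and 5 rescaled). The count of higher genes was 1 when any 1 library other than week 8 replicate 2 or 4 was left out, and the count of lower genes was 1 when week 6 replicate 1, 2 or 5 or week 8 replicate 2, 3 or 4 was. Their summed TPM was 411 to 507 at 6 weeks and 369 to 478 at 8 weeks.

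Many proteins have one form in striated muscle and a paralogue in other tissues. In 13 such pairs, chosen after their values were seen, the form of other tissues had the higher log2 difference in all 13. Of the muscle forms 6 were lower and 2 higher, and all 13 other forms were higher. After rescaling 11 muscle forms were lower, and 12 of the other forms were higher and none lower. Among elongation factors, Eef1a2 of muscle fell from 1350.1 ± 123 to 976 ± 186 TPM while Eef1a1 rose from 511 ± 32.9 to 2551 ± 810.4 TPM. The muscle ribosomal protein Rpl3l fell by 1.46-fold while Rpl3 rose 4.401-fold, and muscle filamin Flnc fell by 1.805-fold while Flna rose 1.72-fold. The ADP/ATP carrier Slc25a4 of muscle fell by 1.403-fold and Slc25a5 rose 1.83-fold. Creatine kinase of brain, Ckb, rose 4.46-fold from 11.5 ± 1.09 TPM, and liver phosphorylase, Pygl, rose 7.31-fold from 3.34 ± 0.512 TPM. The muscle forms that rose were Cox7a1 (log2 0.65) and Cox8b (0.63), each by less than its paralogue Cox7a2 (0.94) and Cox8a (1.31), and neither was called after rescaling (adjusted p = 0.156 and 0.123).

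**Figure D4:**
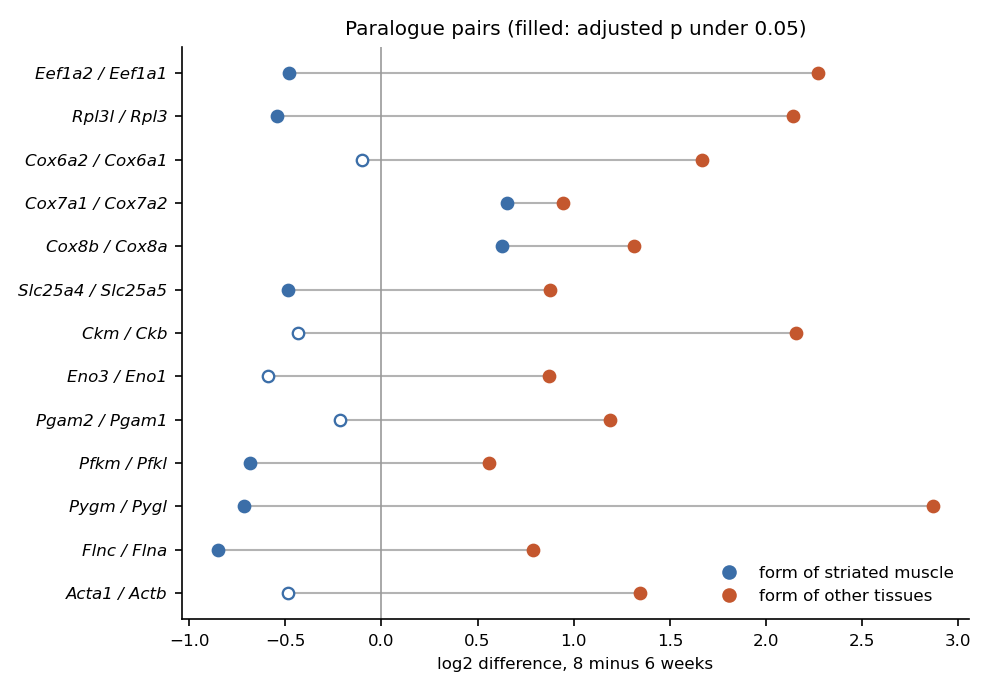
Log2 difference between 8 and 6 weeks of 13 paralogue pairs, with 1 line per pair, blue for the form of striated muscle and orange for the form of other tissues, filled where the adjusted p was under 0.05. In each pair the orange point lies to the right of the blue one.

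Mice with the non-cachectic tumour gave an 8 against 6 week comparison with no library in common. Of 12183 genes tested there, 3743 were higher (30.7%) and 1670 lower (13.7%), with a median of 0.13. The total of 5413 ran from 3787 without NCAC week 8 replicate 4 to 6388 without NCAC week 8 replicate 2. In the test of the difference between the mock and the tumour step, 0 of 13062 genes passed (0%) by limma, and 1216 had an unadjusted p under 0.05. Sample quality weights, which count variable libraries for less, gave 1254.

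Of the 46 lists 28 were drawn, picked by hand. Among those drawn, 27 had medians of the same sign in mock and tumour-bearing mice, and the mock median was further from 0 in 10. Each median is over the members tested in that comparison, so for some lists the 2 medians cover different genes. Among the lists not drawn, clock genes had medians of opposite sign (0.32 in mock and -0.20 in tumour-bearing mice) and the others the same sign. Macrophage genes had a median of 2.69 in mock mice (20 tested) and 2.74 in mice with the tumour (17 tested). In the fit of the difference between the steps their median was 0.34, the mock step being the larger. Ribosomal protein genes had medians of 1.297 and 1.39, and sarcomere genes -0.75 and -1.17. Class II genes stood at 3.47 and 2.24 and collagens at 1.96 and 1.21. H2-Eb1 differed by 4.17 in mock and 2.24 in tumour-bearing mice, a difference of 1.93 ± 0.95 (adjusted p = 0.537). The mock value includes the low week 6 replicate 4 (0.370 TPM). For mt-Atp8 the steps were -1.69 and -0.64, a difference of -1.05 ± 0.45 (adjusted p = 0.536). Myl10 fell in both (-3.34 and -2.47), as did Olfr78 (-2.34 and -2.01) and Myh13 (-2.09 and -1.88). The mitochondrial share of TPM in tumour-bearing mice was 39.1% ± 2.68 at 6 weeks and 31.4% ± 5.33 at 8 weeks, and summed haemoglobin was 1649 ± 495 at 6 weeks and 5562 ± 2957 TPM at 8 weeks.

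**Figure D5:**
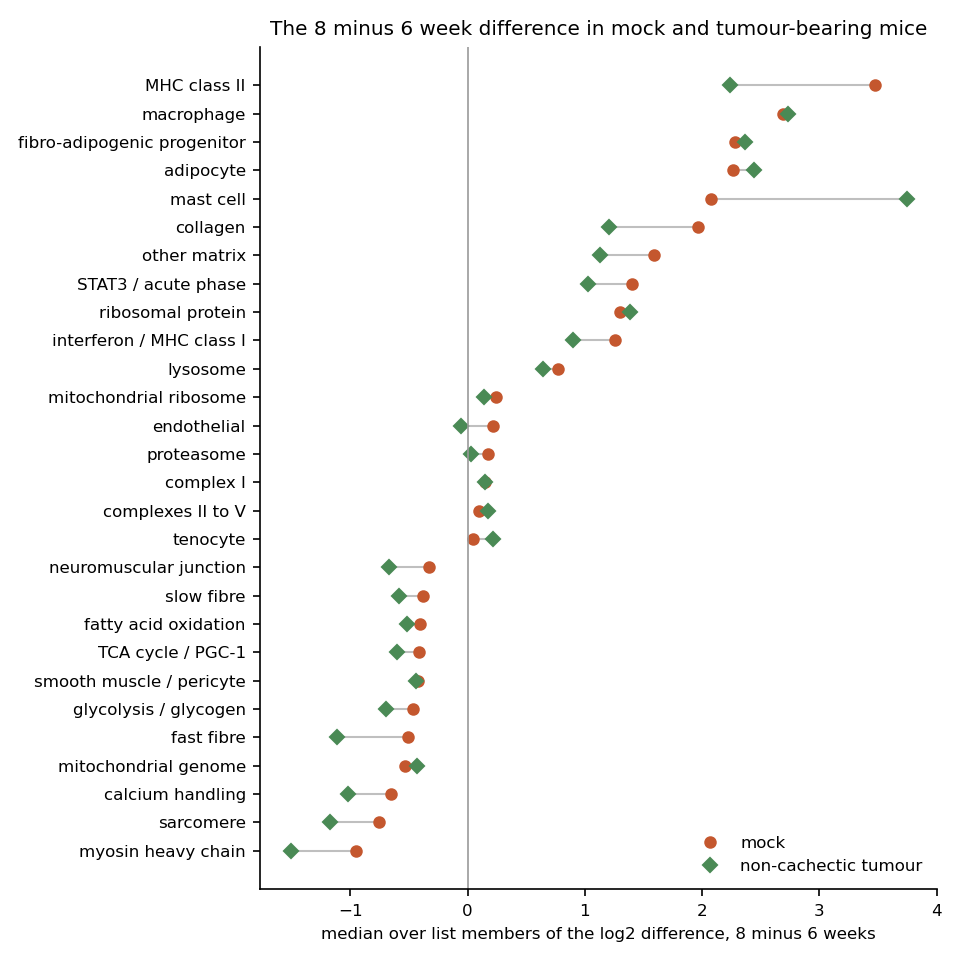
Median over list members of the log2 difference between 8 and 6 weeks in mock mice (circles) and in mice with the non-cachectic tumour (diamonds). Shown are 28 of the 46 lists, picked by hand. Each median is over the members tested in that comparison (11 in mock and 6 in tumour-bearing mice for mast cells). The 2 marks lie on the same side of 0 in 27 lists, from MHC class II (3.47 and 2.24) at the top to myosin heavy chains (-0.95 and -1.504) at the bottom.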

How the data were processed

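RNA of mouse soleus was extracted with Trizol and sequenced from stranded poly(A) libraries (TruSeq stranded mRNA kit, Illumina NovaSeq instrument), per the labels' protocols. The values used are TPM, deposited by the authors as 1 table of 47643 genes and 62 libraries. The submitters' processing notes name the build mm10. For the aligner, the quantification tool and any read filter the entry is: not given in the sources used here. Since TPM holds no counts, read depth is unknown and no count model was run.

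Columns were matched to samples by title, and the group and week were taken from the labels. TPM were transformed to log2(TPM + 1), and genes with at least 1 TPM in at least 5 of the fitted libraries were tested with limma 3.58.1 in R 4.3.3 (eBayes with a trend, Benjamini-Hochberg adjustment, threshold 0.05, two-sided). Each fit used the compared libraries alone (10, or 20 for the difference between the mock and tumour steps). Fold changes are on the TPM + 1 scale, which understates changes of low genes. The mitochondrial share and the number of genes at 1 TPM or more were compared by exact permutation over libraries in R. Figures and correlations over genes were made in Python 3.11.15 with SciPy 1.17.1. No 2 libraries held identical values. The test was also run on simulated data in which only a small part of the genes was changed, unlike these data, where most tested genes differed.

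Gene lists (46, with 905 different genes) and 66 panel genes were chosen with earlier results of these data known, so their directions are no independent support. Genes named are the panel, the 10 largest rises and falls with at least 5 TPM in the higher group, and within each list the most abundant gene, those with the smallest adjusted p, the largest changes in each direction and, where at most 2 members went against the list, those. Some of the genes picked by this rule are left unreported. The ranking of rises and falls left out symbols of predicted genes, RIKEN and other clones, and pseudogenes. From the list genes a part is printed, chosen after their values were seen, as were the paralogue pairs, Ifit3, Tnnt1 and Tnni1. Exon lengths came from the GENCODE M21 annotation of mm10 and covered 96.8% of tested genes. Alternatives were another scaling (median of ratios), sample quality weights, a replicate block, 1 fit of all 62 libraries, genes of every level tested, a pseudocount of 0.1, and each library omitted in turn. Removal of a length trend (lowess, span 0.3) was added after seeing the data.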

Additional observations from a re-analysis of the deposited data

Results flagged for a closer look

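Within the 5 libraries of each week, 31 of 480 groups of values (genes named above, and 4 measures of the libraries) had a library far from the other 4 by Dixon's ratio above 0.71, computed for genes on log2(TPM + 1). Chance flags about 1 in 20 groups. Genes that vary together are flagged together.

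At 6 weeks replicate 1 stood apart in 9 genes. It was low in Myl10 (11.6 TPM against 23.3 to 26.4 in the others), Myh13 (1.68 against 3.61 to 4.69), Cnp (2.55 against 3.96 to 4.11), Cox8a (156 TPM), Hspd1 (193 TPM) and Ndufb4 (195 TPM), and high in Arntl (9.62 against 1.76 to 2.83), Car3 (7650 against 4087 to 4686) and Loxl1 (11.2 TPM). Replicate 2 was high in Lpl (1096 TPM) and Pygl (4.24 TPM) and low in Tnfaip6 (1.03 TPM). Replicate 4 had H2-Eb1 at 0.370 TPM against 9.82 to 17.3 in the others, while its H2-Aa, close to H2-Eb1 on chromosome 17, was 7.301 TPM against 8.97 to 13.1. The same library had the lowest Ryr1 (306 TPM) and the most haemoglobin message (2153 TPM). Replicate 5 had Tyrobp at 10.99 TPM, Ctsk at 9.86 TPM and the most genes at 1 TPM or more, 11928 against 11745 to 11798.

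At 8 weeks replicate 2 stood apart in 8 genes, with low Myh7 (1649 TPM against 2553 to 2937), Myh6 (335 TPM), Atp2a2 (1386 TPM), Ldhb (794 TPM) and Chrna1 (10.4 against 21.6 to 26.1) and high Fbn1 (284 against 78.98 to 109), Ckb (93.1 TPM) and Ctsb (351 TPM). Replicate 1 was high in Ccl8 (233 against 13.04 to 28.5) and low in Lep (16.1 against 48.2 to 67.4) and Nnat (45.1 against 196 to 292). Replicate 3 had Rps26 at 0.730 TPM against 876 to 1581 in the other libraries of its week, and replicate 5 had Masp1 at 10.6 TPM.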

How the results depend on the processing

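The total of 8086 genes differing between 8 and 6 weeks stayed within 1.5 times under every alternative run, from 7086 to 7770 with 1 library left out and from 7583 (all 62 libraries fitted) to 9711 (no filter) otherwise. The split between directions did not: 3808 genes were higher and 4362 lower with median-of-ratios rescaling, and 3823 and 3847 with the length trend removed. The direction of lists near the median of all genes, such as endothelial, proteasome, mitochondrial ribosome and complex I genes, depends on this choice, and the cause was not tested. A gene counts as reversed here where its sign changed and it was called before or after. With rescaling these were Igf2 (log2 -0.29), Lamp1 (-0.29) and Stat3 (-0.10), with the length trend removed Lamp1 (-0.28), Cox7a1 (-0.0046) and Cox8b (-0.079), and without week 8 replicate 3 Rps26 (1.09, against -1.37 to -0.76 without any other library). Of 236 named genes that were tested, 26 changed call or sign with rescaling, 28 with the length trend removed, 21 with some library left out, 12 with all 62 libraries fitted, 8 with no filter and 0 with a pseudocount of 0.1. Between 6 and 4 weeks 0 to 1 gene passed with 1 library left out (1 without 4 week replicate 4 or 6 week replicate 1). The difference between the mock and tumour steps gave 1254 genes with sample quality weights and 0 under the other alternatives run. The difference in mitochondrial share ran from -12.9 to -9.18 percentage points and that in genes at 1 TPM or more from 995 to 1120 with 1 library left out.

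With the replicate block 7804 genes differed. The differences of -11.1 percentage points and 1071.6 genes then had p = 0.0625 in the exact paired permutation test, the smallest p that 5 pairs allow. The numbers pair nothing that the labels name. Deviations of same-numbered libraries correlated at 0.0036 to 0.169, over 0.1 in 2 of 5 pairs, and 3 of 5 libraries correlated best with their own number. The block changed the call of 6 of the 236 named genes. TPM holds no depth, so how far depth limits the low genes cannot be given.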
